A study of Bos taurus with 12 samples.

Results

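Described here are 5 transcripts, grouped as fibroblast and mural cell genes, in cultured bovine chromaffin cells: MGP, COL1A2, FN1, POSTN and ACTA2. All probe sets that the array's annotation assigns to these symbols were taken, which gave 10 probe sets (4 for MGP, 2 each for COL1A2 and FN1, 1 each for POSTN and ACTA2) of 24016 on the array. The annotation named 9155 genes in all. Chromaffin cells secrete catecholamines and were prepared from bovine adrenal glands. Untreated cells were compared with cells given 10 nM interleukin-6 (IL6) for 24 h, 1 nM of the human form of interferon alpha (IFNα) for 24 h, or 10 µM histamine for 6 h. Total RNA of every group was put on 3 arrays, 12 in all for the 4 groups. The submitters call these triplicates technical, so p-values measure only the spread between these arrays. No culture time is given in the labels for the untreated cells, so the histamine comparison has no stated time-matched control.

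COL1A2 encodes a chain of type I collagen, the main fibrillar collagen made by fibroblasts. Fibronectin, the product of FN1, is a matrix glycoprotein to which cells attach through integrins, and periostin, the product of POSTN, is a matricellular protein of remodelling tissue. MGP encodes matrix Gla protein, a small secreted protein that needs vitamin K dependent carboxylation and restrains calcification, and ACTA2 encodes smooth muscle alpha-actin of pericytes, vascular smooth muscle and myofibroblasts. Cultures from dissociated adrenal medulla can hold such stromal cells beside chromaffin cells. In bulk RNA, fewer cells of a type and less RNA per cell cannot be told apart. Which cells of the cultures made the member transcripts was not tested.

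Values are log2 expression values, on which a step of 1 is a doubling, and a probe set is a group of short probes summarised as 1 value. The mean over all probe sets was 6.79 on every array, arrays of the same group correlated at 0.993 to 0.998, and the lower quartile of the arrays ran from 5.02 to 5.11. The chromaffin label was borne out by 10 measured markers, among them TH, DBH and CHGA, none of which lay below that quartile and whose list mean ran from 12.08 to 12.72. Of 30 fibroblast and matrix genes, 7 had means over all arrays below 5.11, and the gene means ran from 3.84 (FAP) to 13.06 (DCN) with a median of 6.34. Of 15 mural and contractile genes 1 lay below it, with a median of 6.38. A list of glycolysis and hypoxia genes was raised on IL6 repeats 2 and 3 and IFNα repeat 3, by 0.94, 1.42 and 1.08 over the untreated mean, against 0.14 on IL6 repeat 1 and -0.01 on IFNα repeats 1 and 2. The changes and calls of members and list genes were also computed without these 3 arrays, called hypoxia-high here. This leaves IL6 with 1 array whose spread is taken from the other groups.

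Histamine raised COL1A2 and FN1 by their brighter probe sets and MGP by Bt.3595.1.S1_at, each by 1.54-fold to 1.72-fold. The 3 other MGP probe sets read lower after histamine, with log2 changes of -0.78 (called), -0.55 and -0.55. Bt.3595.1.S1_at was the brightest MGP probe set over all arrays, but in untreated cells Bt.18325.1.A1_at was brighter (9.03 against 8.77). IL6 raised POSTN 1.92-fold and lowered ACTA2 and 3 of the 4 MGP probe sets. IFNα lowered ACTA2, and no other member was called after it. Calls required both a fold of at least 1.5 and an adjusted p under 0.05 (limma, Benjamini-Hochberg over all probe sets). After IL6, 1 member probe set was higher and 4 were lower, beside 2.39% of all probe sets called in either direction (1.44% higher, 0.949% lower). After IFNα 1 of the 10 was lower, beside 3.36% called (2.18% higher, 1.18% lower), and after histamine 3 were higher and 1 was lower, beside 5.7% (2.99% higher, 2.71% lower). The moderated F test of limma over the 4 groups was passed by all 10 (adjusted p 6.92e-09 to 0.0226) and by 49.1% of all probe sets. Arrays did not overlap untreated ones in 9 of 10 member probe sets after IL6 (33.9% of all), 8 after IFNα (32.9%) and 9 after histamine (43.7%). The 3 treatments share their untreated arrays.

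**Figure D1:**
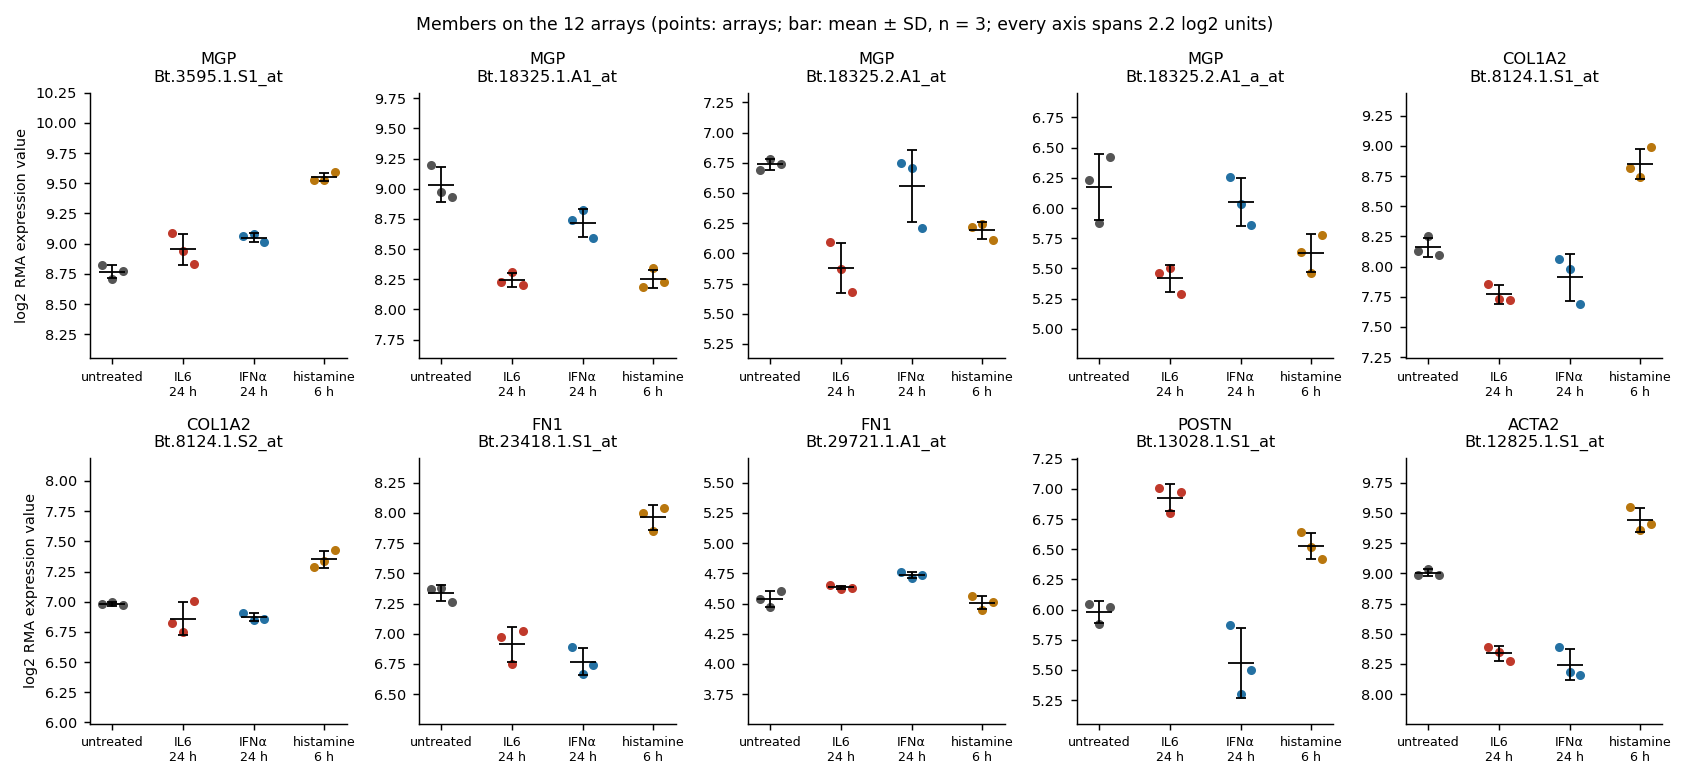
Log2 expression values (vertical axes, all of the same span) of the 10 member probe sets on the 12 arrays, by treatment group; points are arrays and bars are mean ± SD (n = 3). The histamine arrays lie highest for the MGP probe set Bt.3595.1.S1_at, both COL1A2 probe sets, the brighter FN1 probe set and ACTA2, and the untreated group has the highest mean for the other 3 MGP probe sets.

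The secreted calcification inhibitor MGP gave different answers by probe set. Its probe set Bt.3595.1.S1_at is the one that the annotation ties to the gene's RefSeq mRNA, and the 3 others (Bt.18325.1.A1_at, Bt.18325.2.A1_at and Bt.18325.2.A1_a_at) are tied to other sequence records, the last 2 to the same record. In the cattle gene table (ARS-UCD2.0) MGP lies between ERP27 and ART4, and no listed gene overlaps it.

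Bt.3595.1.S1_at read 8.82, 8.71 and 8.77 on untreated repeats 1, 2 and 3 and 9.53, 9.53 and 9.59 after histamine. IL6 arrays read 9.09, 8.94 and 8.83, and IFNα arrays 9.06, 9.08 and 9.01. Every treated array thus lay above every untreated one, and the histamine arrays lay above all others. With histamine the rise was 1.72-fold (log2 change 0.78, SE 0.06; limma, adjusted p = 3.54e-07). The changes of 0.28 after IFNα (limma, adjusted p = 0.00512) and 0.19 after IL6 (limma, adjusted p = 0.054) were below the fold minimum. Without the 3 hypoxia-high arrays the IL6 change was 0.32 (limma, adjusted p = 0.00497), also below it.

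Bt.18325.1.A1_at read 9.20, 8.97 and 8.93 in untreated cells, 8.23, 8.31 and 8.20 after IL6, 8.74, 8.82 and 8.59 after IFNα and 8.19, 8.34 and 8.23 after histamine. Here every treated array lay below every untreated one, and the IL6 and histamine arrays overlapped. It fell by 0.79 on the log2 scale after IL6 (SE 0.08; limma, adjusted p = 8.2e-06) and by 0.78 after histamine (SE 0.08; limma, adjusted p = 3.33e-06). The IFNα change of -0.32 passed the adjusted p (limma, 0.0118) but not the fold minimum.

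The dimmer pair followed the order of Bt.18325.1.A1_at, with untreated highest, then IFNα, histamine and IL6. Bt.18325.2.A1_at read 6.69, 6.78 and 6.74 in untreated cells, 6.09, 5.87 and 5.68 after IL6, 6.75, 6.71 and 6.21 after IFNα and 6.22, 6.24 and 6.11 after histamine. For Bt.18325.2.A1_a_at the values were 6.23, 5.88 and 6.42 in untreated cells, 5.46, 5.50 and 5.29 after IL6, 6.26, 6.03 and 5.86 after IFNα and 5.64, 5.46 and 5.78 after histamine. The IFNα arrays overlapped the untreated ones in both, whereas the IL6 and histamine arrays lay below all untreated arrays. Both fell after IL6, by 0.86 and 0.76 on the log2 scale (limma, adjusted p 0.000344 and 0.00126). Their changes of -0.55 each after histamine passed the adjusted p (limma, 0.00429 and 0.00545) and missed the fold minimum. Bt.18325.2.A1_a_at passed it without untreated repeat 2 (-0.70) or histamine repeat 3 (-0.63).

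**Figure D2:**
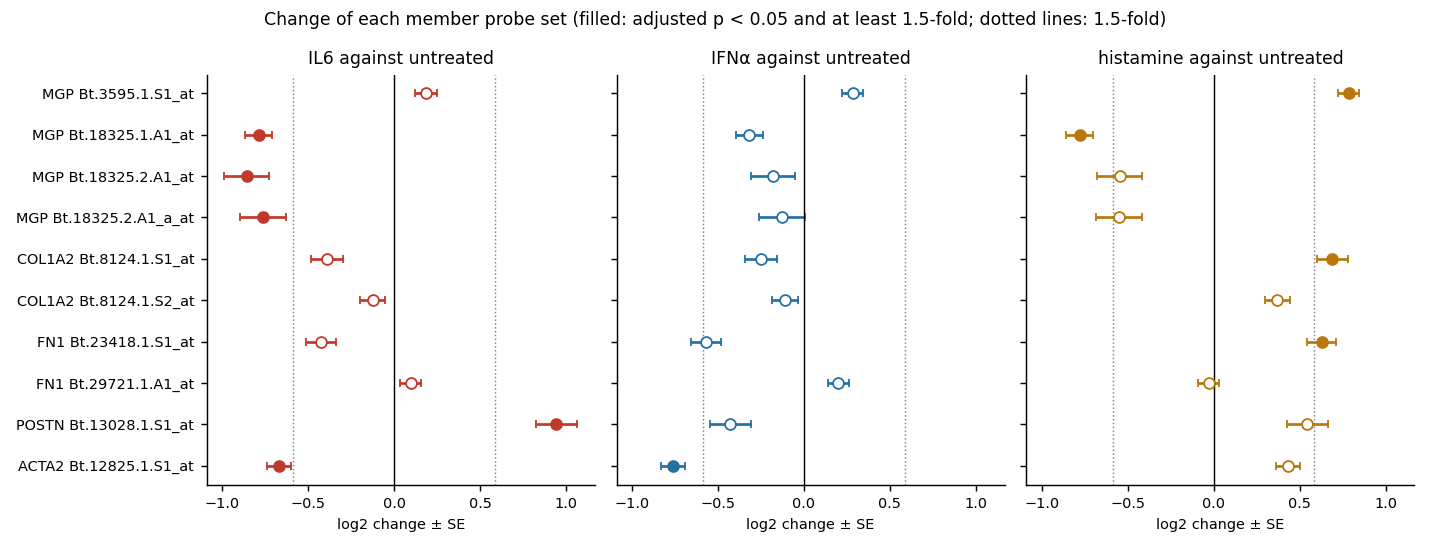
Log2 change of each member probe set against untreated cells (horizontal axis) after IL6, IFNα and histamine, with its standard error; filled points were called and dotted lines mark 1.5-fold. After histamine the MGP probe sets Bt.3595.1.S1_at (0.78) and Bt.18325.1.A1_at (-0.78) sit on opposite sides of 0.

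The disagreement is described by the difference between 2 probe sets on the same array. It is given with no test, because the probe sets were kept separate for disagreeing. Bt.3595.1.S1_at minus Bt.18325.1.A1_at was -0.27 ± 0.11 in untreated cells, 0.33 ± 0.08 after IFNα, 0.71 ± 0.13 after IL6 and 1.30 ± 0.09 after histamine (SD, n = 3), and no array of a group overlapped another group. Against Bt.18325.2.A1_at and Bt.18325.2.A1_a_at the same difference widened by 1.33 each after histamine and by 1.04 and 0.95 after IL6. Without the 3 hypoxia-high arrays, Bt.3595.1.S1_at minus Bt.18325.1.A1_at was 0.29 after IFNα and 0.86 on the remaining IL6 array. MGP was 1 of 2 genes, with EED, whose probe sets were called in opposite directions after histamine. These were 0.709% of the 282 genes with several probe sets and any call. That total includes genes with only 1 called probe set, which cannot be called both ways. The MGP probe sets were kept separate for disagreeing, so the share is a description and lends their disagreement no support. No gene of 104 was called both ways after IL6 by limma, and 1 of 133 (0.752%) was after IFNα, again EED. EED is named for this count alone. A mean over the 4 MGP probe sets gave -0.27 after histamine, -0.55 after IL6 and -0.09 after IFNα, on the log2 scale. No probe or transcript sequence was used here, so which MGP transcripts each probe set reads was not tested.

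**Figure D3:**
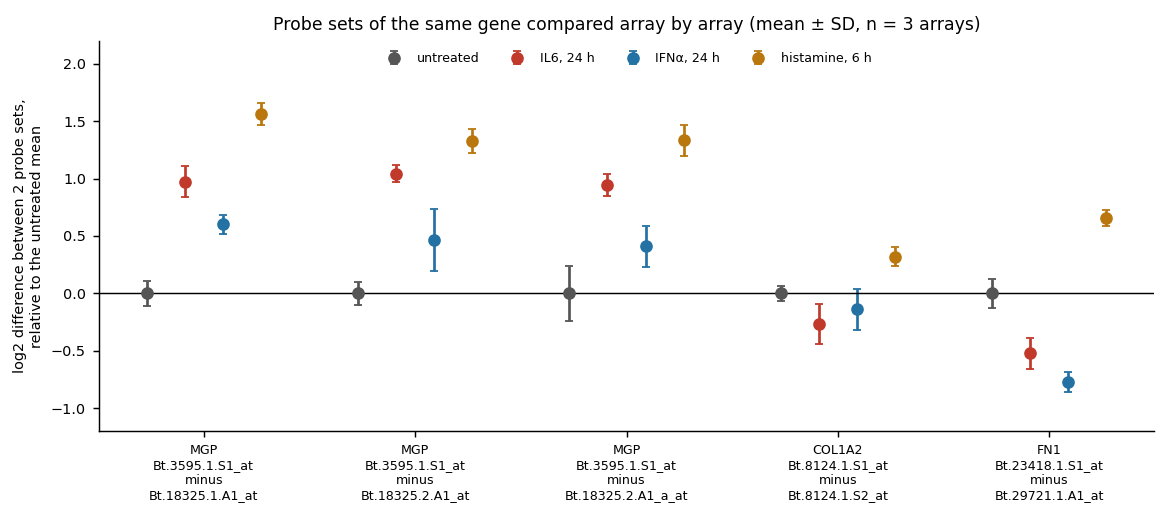
Difference in log2 value between 2 probe sets of the same gene (vertical axis, relative to the untreated mean) for the 5 pairs, by group; points are means and bars SD over 3 arrays. The 3 MGP pairs widen in the order IFNα, IL6, histamine, up to 1.56 for Bt.3595.1.S1_at minus Bt.18325.1.A1_at, and the COL1A2 and FN1 pairs lie below 0 after both cytokines and above 0 after histamine.

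MGP protein must be carboxylated by GGCX with vitamin K recycled by VKORC1, and it binds bone morphogenetic proteins (BMPs). In a list of 13 measured genes of vitamin K dependent carboxylation and BMP signalling, 1 rose and 2 fell after IL6, 1 rose after IFNα and 2 fell after histamine. All named genes, each by its brightest probe set, were called in 2.76%, 3.95% and 6.98% of cases in the same comparisons. The list medians were 0.04, -0.02 and -0.08, against -0.01, -0.02 and 0.01 for all named genes. PROS1, which encodes the vitamin K dependent protein S, rose 1.87-fold after IL6, though its other probe set had a log2 change of -0.03. ID3 and ID1 are transcriptional targets of BMP receptors, and ID2 belongs to the same family. ID3 fell by 0.68 after IL6. ID1 rose 1.83-fold after IFNα and fell by 0.66 after histamine, with log2 changes of 0.10 and 0.01 in its other probe set. ID2 fell by 0.75 after histamine. BMPR1A, a BMP receptor, fell by 0.63 after IL6, with -0.12 in its other probe set, and was not called without the 3 hypoxia-high arrays (-0.47) or without IL6 repeat 2 (-0.57). Neither GGCX nor VKORC1 was called, with log2 changes from -0.25 to 0.07.

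COL1A2, the collagen chain gene, was highest after histamine in both of its probe sets. Bt.8124.1.S1_at read 8.13, 8.25 and 8.10 in untreated cells, 7.86, 7.73 and 7.72 after IL6, 8.06, 7.98 and 7.69 after IFNα and 8.82, 8.74 and 8.99 after histamine. The histamine arrays lay above all others and both cytokine groups below all untreated arrays, with IL6 and IFNα overlapping. The rise after histamine was 1.61-fold (log2 change 0.69, SE 0.09; limma, adjusted p = 4.7e-05). After IL6 the change was -0.39 (limma, adjusted p = 0.0096), below the fold minimum, and after IFNα it was -0.25 (limma, adjusted p = 0.0846). Bt.8124.1.S2_at read 6.98, 7.0 and 6.97 in untreated cells and 7.29, 7.34 and 7.43 after histamine. Its log2 change of 0.37 (limma, adjusted p = 0.0012) had the direction of the brighter probe set and was smaller. The difference between both probe sets changed by 0.32 after histamine and by -0.27 after IL6 (exact permutation test over all 369600 groupings of the 12 arrays, p = 0.00312). This was the largest p of 5 pairs of probe sets, which adjustment over the pairs always leaves unchanged. IL6 arrays of Bt.8124.1.S2_at, at 6.82, 6.75 and 7.01, overlapped untreated cells, and those of IFNα, at 6.91, 6.85 and 6.86, lay below them.

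The fibronectin gene FN1 had the same order at its top. Bt.23418.1.S1_at read 7.37, 7.38 and 7.26 in untreated cells, 6.97, 6.75 and 7.02 after IL6, 6.89, 6.67 and 6.74 after IFNα and 8.0, 7.85 and 8.04 after histamine. Histamine arrays lay above all others and cytokine arrays below all untreated ones. The histamine rise was 1.54-fold (log2 change 0.63, SE 0.09; limma, adjusted p = 5.78e-05). FN1 had a log2 change of -0.42 after IL6 (limma, adjusted p = 0.0036) and of -0.57 after IFNα (limma, adjusted p = 0.000241). The IFNα change missed the fold minimum, and passed it without untreated repeat 3 (-0.61) or IFNα repeat 1 (-0.63). Bt.29721.1.A1_at, the other FN1 probe set, was dim, under each array's own lower quartile, and ran between 4.45 and 4.76, and was not called in any comparison. Its values after histamine, 4.56, 4.45 and 4.51, overlapped the untreated 4.54, 4.47 and 4.60, so the FN1 rise rests on Bt.23418.1.S1_at alone, and the difference between both mainly repeats the change of the brighter one.

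POSTN, the periostin gene, was the member raised by IL6 and the one that separated all 4 groups. Its single probe set read 6.05, 5.88 and 6.02 in untreated cells, 7.01, 6.80 and 6.97 after IL6, 5.87, 5.30 and 5.50 after IFNα and 6.64, 6.52 and 6.42 after histamine. The order was IL6, histamine, untreated and IFNα, with no overlap between any neighbours. IL6 raised it 1.92-fold (log2 change 0.94, SE 0.12; limma, adjusted p = 7.95e-05), and without the 3 hypoxia-high arrays the change was 1.03 (limma, adjusted p = 0.00123). The histamine change of 0.54 (limma, adjusted p = 0.00274) was just below the fold minimum and passed it without histamine repeat 3 (0.60). The IFNα change was -0.43 (limma, adjusted p = 0.0239), and -0.40 without IFNα repeat 3 and the other hypoxia-high arrays (limma, adjusted p = 0.0612).

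ACTA2, the smooth muscle actin gene, was lower after both cytokines. It read 8.99, 9.04 and 8.99 in untreated cells, 8.39, 8.35 and 8.27 after IL6, 8.39, 8.18 and 8.16 after IFNα and 9.55, 9.36 and 9.41 after histamine. The IL6 and IFNα arrays overlapped each other and lay below all untreated arrays, and the histamine arrays lay above them. ACTA2 fell by 0.67 on the log2 scale after IL6 (SE 0.07; limma, adjusted p = 1.13e-05) and by 0.76 after IFNα (SE 0.07; limma, adjusted p = 1.48e-06). The histamine change of 0.43 (limma, adjusted p = 0.000216) did not reach the fold minimum. Actin genes are closely similar in sequence, and whether this probe set also reads others was not tested; the probe set of ACTA1, the skeletal muscle form, had log2 changes of 0.11, -0.03 and 0.16 after IL6, IFNα and histamine and was not called.

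IL6 and IFNα were compared directly at 24 h, which shares no untreated array. POSTN was 2.58-fold higher after IL6 (log2 difference 1.37, SE 0.12; limma, adjusted p = 5.8e-07), with all IL6 arrays above all IFNα arrays. The MGP probe sets Bt.18325.2.A1_at and Bt.18325.2.A1_a_at were lower after IL6, by -0.68 and -0.63 (limma, adjusted p 0.00104 and 0.00239). Their calls were lost without IL6 repeat 3 (-0.58 and -0.57) or IFNα repeat 1 (-0.58 and -0.53). The other 7 probe sets were not called. Arrays of both cytokines did not overlap in 5 of the 10 members, beside 38.7% of all probe sets. Among all probe sets 6.11% were called (2.82% higher, 3.29% lower). The differences were 0.09 for ACTA2 (limma, adjusted p = 0.355), 0.15 for FN1 Bt.23418.1.S1_at and -0.14 for COL1A2 Bt.8124.1.S1_at.

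By Pearson correlation over the 12 arrays, each member was set beside the 9154 other named genes, each gene by its brightest probe set. The 12 points share their groups, so high values arise for any genes that follow the treatments, and they are given as a description. FN1 was closest to COL4A1, which encodes a basement membrane collagen (r = 0.990), then to HSD3B1 and SARAF. ACTA2 was closest to ALDH1A1, FHL1 and HSD3B1 (r = 0.983 to 0.986). HSD3B1 encodes a steroid-making enzyme of the adrenal cortex. POSTN was closest to TAGLN3, ADAM9 and TSPAN3 (r = 0.95 to 0.965), COL1A2 to NECAP1, CTNNAL1 and GLDC (r = 0.983 to 0.984), and MGP by Bt.3595.1.S1_at to CRAT, MRPL16 and SERBP1 (r = 0.975 to 0.983). Among the members, FN1 Bt.23418.1.S1_at correlated with ACTA2 at 0.97 and with COL1A2 Bt.8124.1.S1_at at 0.94. MGP Bt.3595.1.S1_at correlated with Bt.18325.1.A1_at at -0.62, and the latter with Bt.18325.2.A1_at at 0.87.

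Of 30 other fibroblast and matrix genes measured, 2 fell after IL6, 3 fell after IFNα, and 1 rose and 1 fell after histamine. All named genes were called in 2.76%, 3.95% and 6.98% of cases. The list medians were -0.01, -0.11 and 0.12. With an unadjusted limma p under 0.05, 2 were higher and 13 lower after IL6, 3 and 14 after IFNα, and 14 and 4 after histamine. Among the 9155 named genes these counts were 1311 and 1925, 1277 and 1884, and 2276 and 2225. THBS1, which encodes the matricellular protein thrombospondin 1, fell by 0.72 after IL6 and by 0.74 after IFNα. Its IFNα call was lost without IFNα repeat 3 (-0.58), and the changes of its 5 other probe sets ran from -0.85 to 0.09 after IL6. SERPINF1, which encodes the secreted factor PEDF, fell by 0.59 after IL6 and by 1.1 after IFNα. The IL6 call was lost without untreated repeat 2 or 3 or IL6 repeat 1 or 3 (log2 change -0.66 to -0.53 over all single arrays left out). COL12A1, a collagen that decorates fibrils, fell by 0.90 after IFNα, with -0.11 and -0.04 in its other probe sets. After histamine THBS2, the paralog of THBS1, rose 1.64-fold and TGFBI, a secreted matrix protein, fell by 0.63. COL1A1, named because it encodes the partner chain of COL1A2 in type I collagen, had log2 changes of 0.09, -0.04 and 0.33 after IL6, IFNα and histamine and was not called. Its histamine arrays lay above all untreated ones, and that change passed the adjusted p (limma, 0.00631) but missed the fold minimum. The 7 dim genes of this list were FMOD, ASPN, OGN, DPT, FBLN5, VCAN and FAP.

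Among 15 mural and contractile genes, 2 rose after IL6 and 2 after histamine, beside 2.76% and 6.98% of all named genes called. None was called lower. With an unadjusted limma p under 0.05, 2 were higher and 4 lower after IL6, and 5 and 1 after histamine. Among the 9155 named genes 1311 were higher and 1925 lower after IL6, and 2276 and 2225 after histamine. KCNJ8, a potassium channel subunit of pericytes, rose 6.85-fold after IL6, and DES, which encodes the muscle filament protein desmin, rose 1.73-fold. Histamine raised the smooth muscle genes CNN1, which encodes calponin, 2.37-fold and TPM2, a tropomyosin, 1.81-fold, and the other TPM2 probe set had a change of 0.19. Limma called none of the 15 after IFNα, where 10 had an unadjusted p under 0.05, all lower, and the list median was -0.22. Of the 9155 named genes 3161 had such a p after IFNα, 1277 higher and 1884 lower. The medians were -0.01 after IL6 and 0.13 after histamine. RGS5, a pericyte regulator of G proteins, had -0.50 after IL6 and was called without IL6 repeat 3 (-0.60) and without the 3 hypoxia-high arrays (-0.72). RGS5 was chosen after its values were seen.

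Of 13 genes that fold and crosslink collagen, 3 rose after histamine and 1 rose after IL6, beside 6.98% and 2.76% of all named genes called. Leaving out 1 array at a time gave 2 to 4 and 0 to 3. SERPINH1, the collagen chaperone HSP47, rose 1.6-fold after histamine, TGM2, a crosslinking transglutaminase, rose 1.70-fold, and P4HA2, a prolyl hydroxylase subunit, rose 1.55-fold. P4HA2 rose 1.53-fold after IL6 too, and that call was lost without the 3 hypoxia-high arrays (log2 change 0.21; limma, adjusted p = 0.218) and without any of 7 single arrays. The histamine call of P4HA2 was lost without untreated repeat 2 or 3 or histamine repeat 3 (0.58 to 0.69 over all arrays left out). PLOD2, a lysyl hydroxylase chosen after its values were seen, had 0.61 after histamine, called without the 3 hypoxia-high arrays and not with all. None of these 13 was called by limma after IFNα, where 5 had an unadjusted p under 0.05, beside 3161 of the 9155 named genes. The medians were 0.03, -0.01 and 0.11 after IL6, IFNα and histamine.

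Of 7 measured matrix receptors, ITGAV, an integrin subunit that binds fibronectin and periostin, rose 1.88-fold after histamine, and its other probe set was called too (0.76). Limma called none of the 7 after IL6 or IFNα, where 4 and 5 had an unadjusted p under 0.05, beside 3236 and 3161 of the 9155 named genes. CD44, ITGAV and ITGB1 were higher after IL6 than after IFNα, by 0.70, 0.65 and 0.62, and 6.96% of named genes were called between the cytokines. The ITGAV difference lost its call without IFNα repeat 3 (0.49). In the TGFB pathway, which drives fibroblast matrix production, 1 of 12 genes fell after IL6, 1 fell after IFNα and 1 rose after histamine. Against untreated cells, 2.76%, 3.95% and 6.98% of all named genes were called after these treatments. TGFB2, a ligand, fell by 0.74 after IFNα and rose 1.92-fold after histamine. LTBP1, which holds latent TGFB in the matrix, fell by 0.77 after IL6, and was not called without the 3 hypoxia-high arrays (-0.44). The TGFB target CCN2, chosen after its values were seen, had log2 changes of -0.50, -0.51 and 0.20, and was called after IL6 without those 3 arrays (-0.60). Without them the ligand gene TGFB3, also chosen after its values were seen, was called higher after IL6 (0.65, against 0.31 with all arrays). The list medians were 0.06, -0.13 and 0.13.

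**Figure D4:**
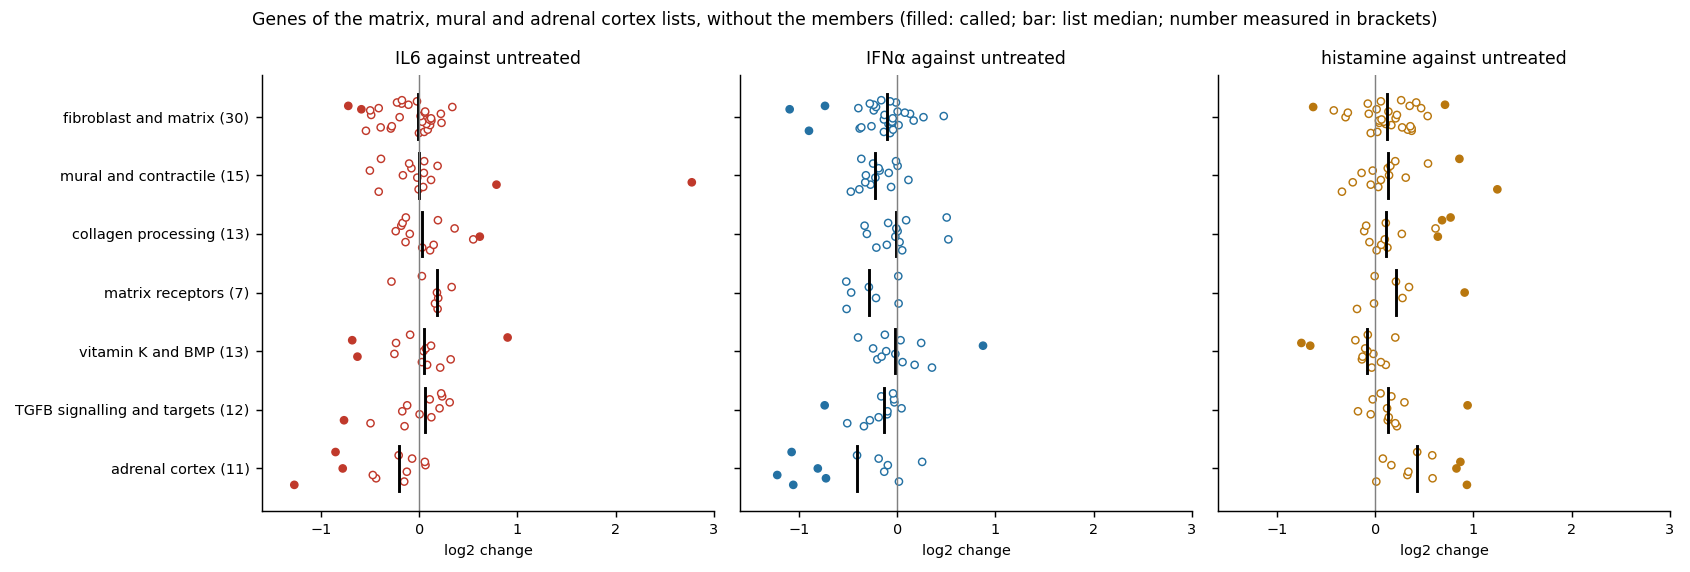
Log2 change against untreated cells (horizontal axis) of each gene in 6 matrix, mural and signalling lists and in the adrenal cortex list, with the 5 members left out; each point is a gene by its brightest probe set, filled points were called, and vertical bars are list medians. Adrenal cortex medians lie at -0.21, -0.41 and 0.43 after IL6, IFNα and histamine, on the same side of 0 as the changes of ACTA2, FN1 Bt.23418.1.S1_at and both COL1A2 probe sets. The fibroblast and matrix medians (-0.01, -0.11 and 0.12) and the mural medians (-0.01, -0.22 and 0.13) lie on those sides too. So do the medians of all named genes (-0.01, -0.02 and 0.01), and after IL6 both lists are no further from 0 than these when rounded.

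The median change of adrenal cortical cell markers lay on the same side of 0 as the changes of ACTA2, COL1A2 and the brighter FN1 probe set. The dim FN1 probe set lay on the other side (0.10, 0.20 and -0.03 after IL6, IFNα and histamine). Of 11 measured cortex markers 3 fell after IL6, 5 fell after IFNα and 3 rose after histamine, beside 2.76%, 3.95% and 6.98% of all named genes called. Not every marker followed the median. After IL6 NR0B1 and MC2R had log2 changes of 0.06 each, and after IFNα NR0B1 had 0.25 and CYP11B1 0.02. CYP11A1, which cleaves cholesterol to begin steroid synthesis, fell by 1.27 and 1.06 after the cytokines and rose 1.91-fold after histamine. The mean of the cortex list ran from 7.11 to 7.13 on untreated arrays, 6.70 to 6.76 after IL6, 6.62 to 6.63 after IFNα and 7.57 to 7.60 after histamine, and none of its genes had a mean over all arrays below 5.11, though the group means of STAR (4.88 after IFNα, 5.11 after IL6) and CYP11B1 (5.05 after IL6) were at or below it. Without the 3 hypoxia-high arrays 4 cortex markers were lower after IL6. The mean of the fibroblast and matrix list ran from 7.09 to 7.12, 6.98 to 7.0, 6.92 to 6.97 and 7.19 to 7.27 in the same order. For the mural list the ranges were 7.0 to 7.02, 7.15 to 7.18, 6.74 to 6.85 and 7.18 to 7.22. The mural mean after IL6 includes KCNJ8, with a log2 change of 2.78, whereas the median change of the list was -0.01. The higher mean is therefore not a rise of the list as a whole. The part of the cortex, fibroblast and mural lists in the changes of the members was not tested.

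Markers of other cell types were counted in the same way, beside 2.76%, 3.95% and 6.98% of all named genes called after IL6, IFNα and histamine. An unadjusted limma p under 0.05 was held by 3236, 3161 and 4501 of the 9155 named genes in the same order. Among 12 endothelial genes, EMCN fell by 0.60 after IL6 and by 0.89 after IFNα, and ANGPT2 rose 4.13-fold after IL6. After histamine CLDN5 rose 1.54-fold and TEK fell by 0.81. The EMCN call after IL6 was lost without untreated repeat 3 (-0.56), and that of CLDN5 without histamine repeat 3 (0.53). The endothelial list mean ran from 5.77 to 5.86 on untreated arrays, 5.76 to 5.90 after IL6, 5.60 to 5.61 after IFNα and 5.66 to 5.79 after histamine, with 3 of the 12 below 5.11. Of 10 leukocyte genes CORO1A and CD14 rose and ITGB2 fell after IL6, by 1.70, 1.03 and -0.95 on the log2 scale, and CORO1A rose after histamine (0.70). The leukocyte list mean ran from 5.88 to 5.97 on untreated arrays and from 6.11 to 6.18 after IL6, 5.88 to 5.90 after IFNα and 6.06 to 6.12 after histamine. Limma called no leukocyte gene after IFNα, where 5 had an unadjusted p under 0.05. It called none of 5 Schwann cell genes against untreated cells, where 2, 1 and 2 had an unadjusted p under 0.05 after IL6, IFNα and histamine, and the list mean lay between 6.75 and 7.04 on all arrays. In the chromaffin list 1 gene rose (SLC18A2) and 1 fell (PNMT) after IL6. The PNMT call was lost without any of 7 single arrays (log2 change -0.91 to -0.48 over all left out). Further, PNMT, SLC18A2 and SCG2 rose after histamine. Without the 3 hypoxia-high arrays 3 chromaffin genes were lower after IL6, DBH (-1.13) and CYB561 (-0.74) among them. Limma called none of its 10 genes after IFNα, where 4 had an unadjusted p under 0.05. Of 12 glycolysis and hypoxia genes, which include P4HA1 of the collagen list, 4 rose after IL6 and 1 after histamine. With single arrays left out, 1 to 11 rose after IL6 and 0 to 4 after histamine. Without the 3 hypoxia-high arrays the IL6 changes ran both ways, from -0.71 (ADM) to 1.0 (EGLN3). Their median was then 0.19, against 0.63 with all arrays. Limma called none of the 12 after IFNα, where 2 had an unadjusted p under 0.05. The part of these lists in the results on the members was not tested.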

How the data were processed

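Total RNA of 12 samples was hybridised to Affymetrix bovine arrays. The deposited values are log2 expression values of 24128 probe sets that the authors obtained with RMA, per the submitters' processing notes. Its quantile step makes the arrays' distributions alike. Only relative changes can therefore be read, and array number, not read depth, limits the precision. After 112 control probe sets were left out, 24016 were tested. Genes were named from the platform annotation, where 13292 probe sets had 1 symbol.

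Group means were fitted to all 12 arrays with limma 3.58.1 (R 4.3.3; eBayes with an intensity trend), and p-values were adjusted by Benjamini-Hochberg over all probe sets. Calls needed an adjusted p under 0.05 and 1.5-fold. Differences between probe sets of a gene were computed per array, with an exact permutation test reported for COL1A2. The fit was tested on simulated data.

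In lists, a gene was its probe set with the highest mean. Named genes were all member probe sets, up to 4 called genes per list and comparison with the largest changes, and the 3 genes most correlated with each member; exceptions are stated. The members and lists were chosen with earlier results of these data known. Alternatives covered scaling, filters, array weights, the replicate block, the fold minimum and leaving out arrays. The mean over a gene's probe sets and the list counts without arrays were added after seeing the data.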

Additional observations from a re-analysis of the deposited data

How the results depend on the processing

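Of 864 alternative values for the member probe sets, 841 kept their side of the thresholds, 19 gained a call and 4 lost one. Of the gains 13 came from dropping the fold minimum, which can only add calls. Some alternatives, such as leaving out an array of neither compared group, keep the log2 change as it was. The 841 are therefore no measure of robustness. The sign changed in 7 of the 864, all of them values that were not called and were at most 0.10 in size. Without the fold minimum, 7, 6, 9 and 4 of the 10 member probe sets were called after IL6, IFNα, histamine and between the cytokines. The share of all probe sets called this way is not given here, so these counts are not read as a result about the members. For scale, an unadjusted limma p under 0.05 was held by 3236, 3161 and 4501 of the 9155 named genes after IL6, IFNα and histamine. Without the probe sets below the median brightness, only 6 of the 10 members were tested. Then 2 were called after IL6, 0 between IL6 and IFNα by limma, and 6 among the 4 groups. Leaving out 1 array at a time gave 1 to 2 calls after IFNα and 1 to 3 between IL6 and IFNα. The shares of all probe sets called under these filters are not given here either. With all probe sets of a gene averaged, chosen after seeing the data, the histamine change of MGP was -0.27 against 0.78 by its brightest probe set. The repeat numbers were not taken to pair the arrays. Deviations of same-numbered arrays correlated at -0.07 to 0.60 (median 0.06), and 7 of 18 pairs were over 0.1. Those of different-numbered arrays correlated at -0.61 to 0.37 (median -0.04), and fewer, 3 of 36, were over 0.1. With the replicate block, 5, 1, 4 and 3 member probe sets were called after IL6, IFNα, histamine and between the cytokines, and 10 differed among the groups, with no call changed. The 3 arrays per group, stated to be technical repeats, limit every comparison.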
